A study of Mus musculus with 12 samples.

Results

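Homeobox, GATA and T-box genes were examined for H3K27ac, the acetylation of lysine 27 on histone H3 that marks active promoters and enhancers, in mouse forebrain microglia. The genes were chosen by symbol, with earlier results of these data known. They were every RefSeq protein-coding gene of the Hox clusters and of the Pax, Lhx, Nkx, Dlx, Six-type, Irx, Gata, Tbx, Otx, Emx and Msx families, written with the numbering of those families. The symbols matched 114 genes, and 59 of them were the nearest gene of at least 1 counted window within 100 kb of their transcription start site (TSS). Those 59 of 15879 genes held 122 of 67822 windows, each 1000 bp long and centred on a site that the file header traces to a directory named ATAC. The other 55 genes were the nearest gene of no window within 100 kb, among them Gata1, Pax5, Hoxa9, Nkx2-1, Nkx2-2 and all 6 Irx genes. Windows of other genes can still lie near them: Hoxb5, among the 55, lay 12.6 kb from the Hoxb4 window. Below, a gene without a window is one that was nearest to none within 100 kb.

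The groups were H3K27ac chromatin immunoprecipitation from Nlrp3 knockout (KO) mice, the same from wild-type (WT) mice, sonicated input chromatin from Nlrp3 KO mice and input from WT mice, with 3 libraries each. Nlrp3 encodes the sensor of an inflammasome, a complex of innate immune cells. The series' design text gives WT mice a C57BL/6N background and describes the KO mice, named Nlrp3-/-, as a Cias1 knockout from Millennium Pharmaceuticals. Age and sex were not given, and no transgene, Cre or treatment was named for either genotype. Per the labels' protocols, CD11b+ cells were pulled out with magnetic beads after the brain was dissociated and depleted of myelin. Nothing said that the 3 replicates of a group were separate animals, so p-values measure the spread between these samples, which may be technical.

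Homeobox genes encode transcription factors that bind DNA through a homeodomain. The clustered Hox genes specify position along the body axis, while Pax, Lhx, Nkx, Dlx, Six-type, Otx and Emx genes pattern the brain, sense organs and viscera. GATA and T-box factors, which bind DNA through zinc fingers and the T-box domain, direct blood, heart, endoderm and mesoderm fates, and Gata2, Gata3 and Tbx21 also act in blood cell lineages. In differentiated cells that do not use them, many of these genes have CpG-rich promoters held by Polycomb complexes, which deposit methylation on the same lysine that H3K27ac occupies.

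H3K27ac libraries held 3726550 to 5028129 tags and input libraries 3287009 to 6961590, and windows of the 59 genes held 593 to 894 tags in each H3K27ac library and 227 to 526 in each input library. Nlrp3, the targeted gene, held 196, 226 and 148 H3K27ac tags in KO replicates, against 556, 457 and 511 in WT replicates, over its windows within 100 kb. WT replicate 1 alone held 0 tags at promoters of Y-linked genes, in H3K27ac and in input. Without its H3K27ac library 14 windows of the 59 genes were above input in WT and 8 below it, and without its input library 16 and 7, against 15 and 14 with all libraries. All 10 microglial marker genes were above input in both genotypes, against 69.4% of all genes in KO and 67.1% in WT. Their summed levels were 1215 to 1444 tags per 1000000 total tags (CPM) in KO libraries and 1182 to 1479 CPM in WT libraries. Of 5 oligodendrocyte lineage markers with windows 2, Mbp and Mog, were above input in both genotypes. Of 5 endothelial and mural markers with windows 3 were above input in KO and 4 in WT. The lists summed to at most 146.7 and 112.4 CPM in KO, in that order, and 131.1 and 100.6 CPM in WT. None of the 4 astrocyte markers with windows was above input. All 5 border macrophage markers had windows, with 2 above input in KO and 1 in WT. Of 3 monocyte and neutrophil markers with windows 1, Ccr2, was above input in both genotypes and 1, Ly6c2, was below it in both. The part of other cell types in the values here was not tested.

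H3K27ac was compared with input to find which of these genes carried the mark. At an edgeR adjusted p under 0.05 over all windows, 15 of the 122 windows were above input in KO microglia and 15 in WT, 12.3% each, against 55.6% of all windows in KO and 53.0% in WT. The 2 lists shared 12 windows, 80% of each, and together they named 18 windows of 8 genes: Gata2, Dlx2, Tbx21, Tbx6, Tbx19, Nkx3-2, Hoxb4 and Six5. Leaving out windows whose centre lay in the body of another gene, an alternative added after seeing the data, left 9 windows in KO and 8 in WT. Of the 18, 11 belonged to Gata2, Dlx2 and Tbx21, and 6 overlapped the window before them and shared tags with it. The median fitted log2 H3K27ac over input was −0.94 in KO and −0.58 in WT for the 122 windows, against 2.29 in KO and 2.10 in WT for all windows. On the same scale of total tags, tags outside all windows stood at −0.69 in both genotypes.

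**Figure D1:**
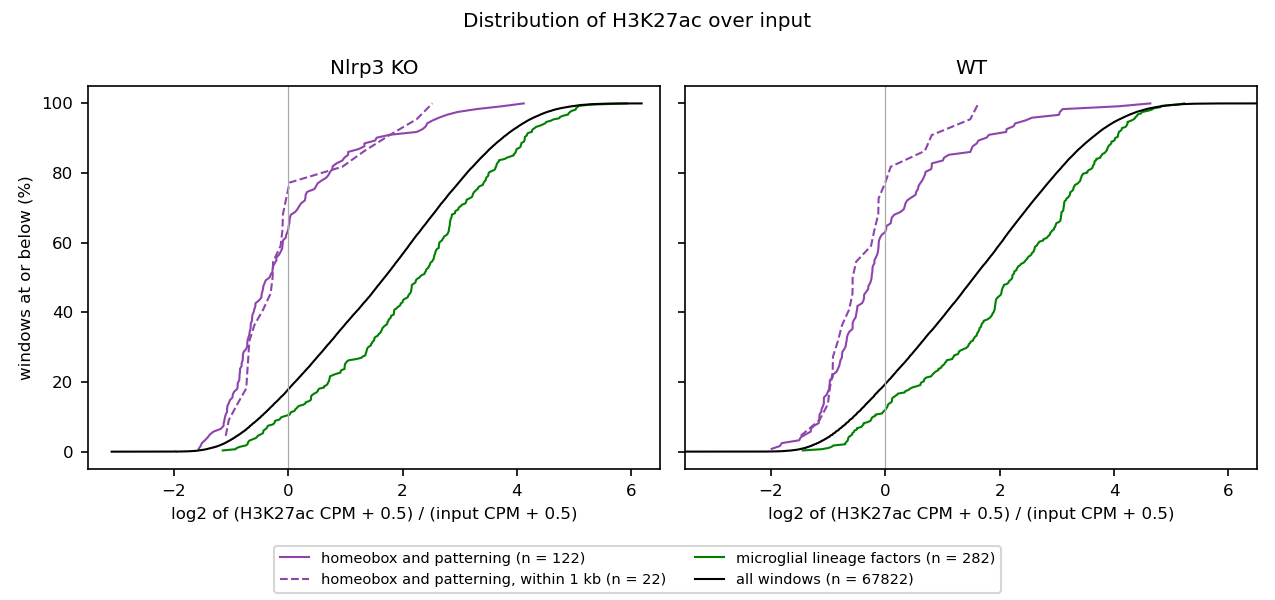
Cumulative share of windows (y axis, %) by the log2 ratio of mean H3K27ac to mean input CPM, with 0.5 CPM added to both (x axis), in KO at left and WT at right, for the 122 homeobox and patterning windows, the 22 of them within 1 kb of a start site, 282 windows of microglial lineage factors and all windows. The curves of homeobox and patterning windows lie to the left, with median ratios of 0.804 in KO and 0.848 in WT, against 3.22 in KO and 2.93 in WT for all windows.

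Summed over windows, 8 of the 59 genes were above input in KO (Dlx2, Gata2, Hoxb4, Nkx3-2, Six5, Tbx19, Tbx21 and Tbx6) and 5 in WT (Dlx2, Gata2, Tbx19, Tbx21 and Tbx6), against 69.4% of all genes in KO and 67.1% in WT. All 5 of the WT genes were among the 8 of the KO. By family, windows above input in KO numbered 5 of 24 for Tbx, 4 of 13 for Dlx, 3 of 17 for Gata, 1 of 14 for Nkx, 1 of 17 for Hox and 1 of 8 for the Six-type genes. In WT they numbered 6 of 24 for Tbx, 6 of 13 for Dlx and 3 of 17 for Gata, and 0 for the Nkx, Hox and Six-type genes. None of the 15 Lhx, 7 Pax, 3 Otx, 3 Emx and 1 Msx windows was above input in either genotype.

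**Figure D2:**
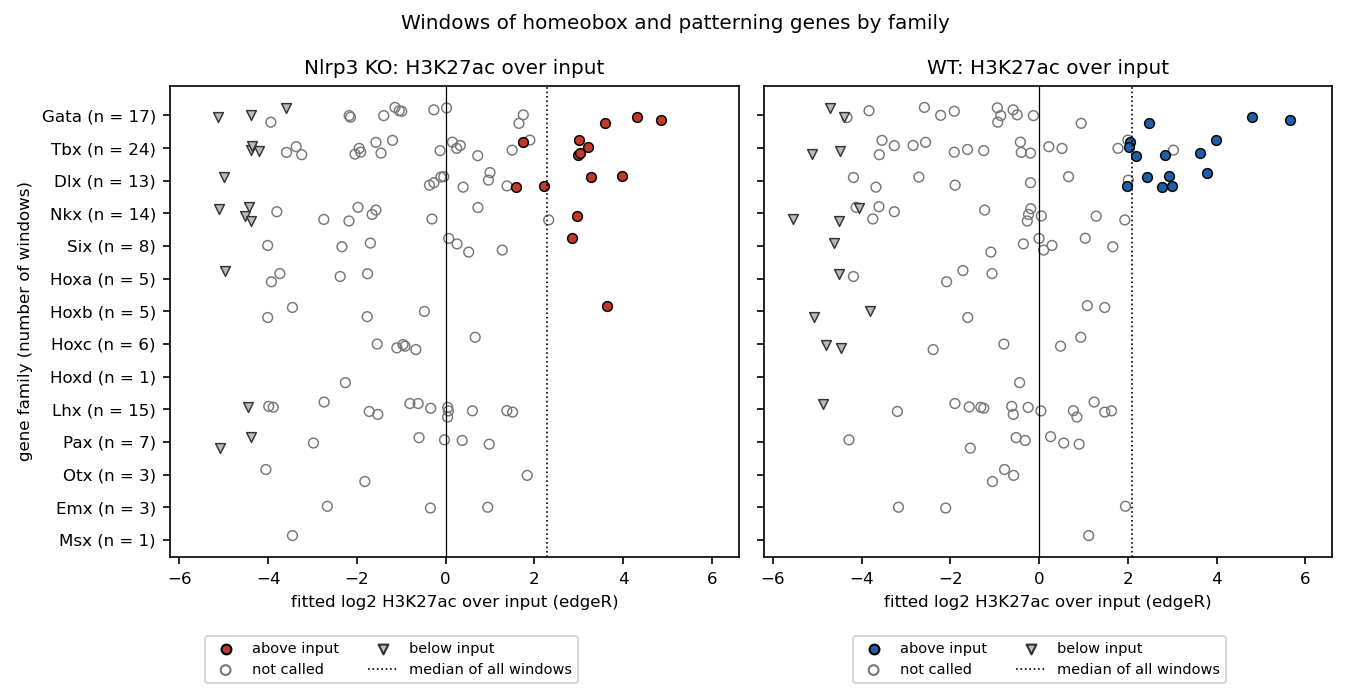
Each point is a window of a homeobox, GATA or T-box gene, placed by its fitted log2 H3K27ac over input (x axis) and its family (y axis), in KO at left and WT at right. Filled circles were above input, triangles below it and open circles not called by edgeR; the dotted line is the median of all windows, and the filled circles lie in the Tbx, Gata and Dlx rows in both genotypes and, in KO, also in the Nkx, Hoxb and Six-type rows with 1 each.

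Gata2, a zinc finger factor of blood stem and progenitor cells and of mast cells, had the highest ratio of H3K27ac to input CPM of all 59 genes, with 0.5 CPM added to both means, at 10.8 in KO and 8.57 in WT. Over its 8 windows it held 248, 227 and 174 tags in KO replicates and 131, 160 and 301 in WT replicates, with input at 35, 12 and 11 tags in KO and 24, 26 and 16 in WT. Some of these windows overlap, and the sums count their shared tags more than once. Its level was 45.1 ± 9.7 CPM in KO and 47.3 ± 20.6 CPM in WT (SD, n = 3 each), with fitted log2 H3K27ac over input of 3.53 in KO (SE 0.30, edgeR adjusted p = 2.7e-17) and 3.21 in WT (SE 0.29, edgeR adjusted p = 6.6e-16). All 6 H3K27ac libraries were above all 6 input libraries. In a bulk sample, fewer cells that carry the mark and less mark per cell cannot be told apart.

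The mark at Gata2 lay upstream of the gene and not at its start sites. The window 9.38 kb upstream, at chr6:88184008-88185008 (mm10), held 103, 92 and 72 tags in KO and 49, 83 and 127 in WT, against 5, 2 and 2 input tags in KO and 3, 2 and 0 in WT. Its fitted log2 over input was 4.85 in KO (SE 0.46, edgeR adjusted p = 3e-23) and 5.65 in WT (SE 0.51, edgeR adjusted p = 5.4e-26), the highest of the 122 windows in both genotypes. A window overlapping it, 8.99 kb upstream, stood at 4.30 in KO and 4.80 in WT. Another window, 11.9 kb upstream at chr6:88181473-88182473, held 44, 63 and 30 tags in KO and 27, 29 and 25 in WT (log2 over input 3.59 in KO and 2.48 in WT). All 3 lay in the body of Gm38708, a long non-coding RNA gene, and the nearest protein-coding genes besides Gata2, Dnajb8 and Rpn1, were about 40.3 kb and 76.7 kb away from the last.

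At the start sites of Gata2 tags were few. The promoter window of the upstream start site held 2, 0 and 0 tags in KO and 0, 0 and 0 in WT, and that of the downstream start site held 2, 2 and 0 in KO and 0, 2 and 0 in WT. Neither was called in either direction, and within 1 kb of the TSS the gene's log2 over input was −0.61 in KO (edgeR adjusted p = 0.673) and −1.80 in WT (edgeR adjusted p = 0.261). A pair of overlapping intronic windows, 4.59 kb and 4.84 kb downstream, had no tag in the WT H3K27ac libraries (0 in all 3). With the input count taken as exact, this put them at least 2.25-fold and 2.89-fold under input in WT. A window 4.12 kb upstream held 4, 3 and 11 tags in KO and 0, 0 and 28 in WT, so that 1 library carried its WT value; it was not called.

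**Figure D3:**
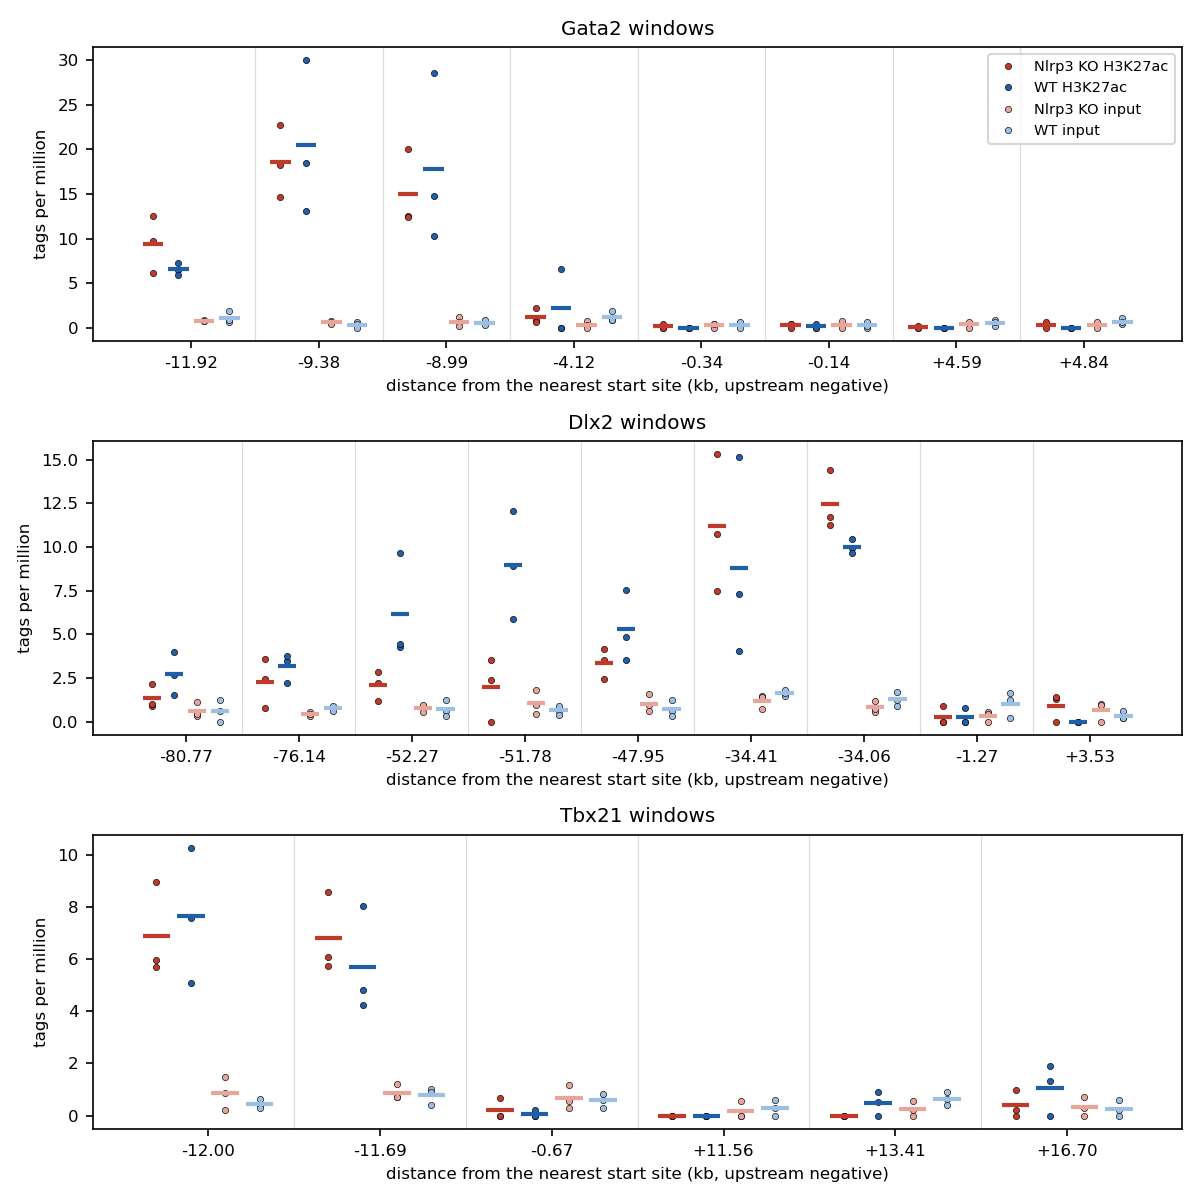
H3K27ac and input levels (y axis, CPM; points are libraries, bars the means of 3) in the windows of Gata2, Dlx2 and Tbx21, evenly spaced in order along the gene and labelled with the distance from the nearest start site in kb (x axis); Gata2 has 2 annotated start sites. The high windows stand 9.38 kb upstream of Gata2, 34.1 kb upstream of Dlx2 and 12 kb upstream of Tbx21, while windows at the start sites lie near input.

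The other GATA genes stood apart from Gata2. Gata3, a factor of T cells and innate lymphoid cells, had 2 windows, with H3K27ac of 1, 0 and 0 tags in KO and 0, 4 and 0 in WT at 10.9 kb, and 5, 0 and 0 in KO and 6, 0 and 0 in WT at 1.10 kb. Neither was above input, and the first was below input in KO (log2 −3.60, SE 1.56, edgeR adjusted p = 0.038). Gata4, Gata5 and Gata6, factors of heart and endoderm, had no window above input; over its 4 windows Gata5 held 4, 2 and 1 tags in KO and 0, 2 and 6 in WT, against 14, 14 and 12 input tags in KO and 11, 9 and 7 in WT. Gata1, the erythroid, megakaryocyte and mast cell factor, was the nearest gene of no window within 100 kb.

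Among T-box genes, Tbx6, Tbx21 and Tbx19 had windows above input, and the other 5 with windows (Tbx1, Tbx2, Tbx20, Tbx3 and Tbx4) had none. Tbx6, a factor of the paraxial mesoderm that forms somites, held 56, 45 and 53 tags in KO and 85, 75 and 42 in WT over 3 windows, against input of 19, 6 and 2 in KO and 6, 8 and 9 in WT. Its log2 over input was 2.58 in KO (SE 0.45, edgeR adjusted p = 7.3e-07) and 3.16 in WT (SE 0.46, edgeR adjusted p = 7.3e-09). Most of those tags came from a window 1.39 kb upstream whose centre lay in the last exon of the neighbouring gene Ypel3, with 39, 35 and 36 tags in KO and 61, 58 and 30 in WT. Over its own windows Ypel3 was above input too, at log2 3.7 in KO and 3.1 in WT. Which gene the mark at that window belongs to was not tested. The promoter window of Tbx6 held 7, 9 and 13 tags in KO and 12, 12 and 12 in WT, and at log2 1.90 in KO and 2.00 in WT it was not called among windows (edgeR adjusted p = 0.070 and 0.051). As the gene's sum within 1 kb, adjusted over genes, the same tags were called above input in both genotypes (edgeR adjusted p = 0.0421 in KO and 0.0286 in WT).

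Tbx21 encodes T-bet, the factor of type 1 helper T cells and natural killer cells. Over 6 windows it held 57, 93 and 58 tags in KO and 44, 87 and 58 in WT, with input of 25, 10 and 13 in KO and 13, 18 and 9 in WT (log2 over input 2.13 in KO and 2.28 in WT). A pair of overlapping windows between Tbx21 and Tbkbp1 carried it: the one 12 kb upstream, at chr11:97126832-97127832, held 27, 45 and 28 tags in KO and 19, 46 and 32 in WT, against input of 6, 5 and 1 in KO and 3, 2 and 1 in WT. Its log2 over input was 3.00 in KO (SE 0.60, edgeR adjusted p = 1.9e-06) and 3.98 in WT (SE 0.66, edgeR adjusted p = 1e-08). The annotated edge of Tbkbp1, which encodes an adaptor of the kinase TBK1, lay 8.84 kb from that window, nearer than the TSS of Tbx21. Over its own windows Tbkbp1 was above input in both genotypes, at log2 2.80 in KO and 2.44 in WT. Osbpl7, the next protein-coding gene at lower coordinates besides Tbx21, was not called. Which gene the mark belongs to was not tested. The promoter window of Tbx21 held 3, 0 and 0 tags in KO and 0, 1 and 0 in WT, and within 1 kb its log2 over input was −1.58 in KO and −2.56 in WT, neither called.

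Marker lists of some cells that use Gata2 or Tbx21 were counted beside them, against 69.4% of all genes above input in KO and 67.1% in WT. Other lists, that of endothelial and mural cells among them, are given above. Of 8 lymphocyte markers 3 had windows and 1, Cd3d, was above input in both genotypes; their summed levels were 10.1 to 22.3 CPM in KO and 17.8 to 21.7 CPM in WT, with input at 5.40 to 8.21 CPM. Natural killer markers Ncr1 and Nkg7 and the T cell marker Cd3e had no window. None of the 4 mast cell and basophil markers had a window. Of 5 erythroid and megakaryocyte markers 3 had windows and 1, Klf1, was above input, with summed levels of 9.35 to 13.7 CPM in KO and 12 to 16.9 CPM in WT, and input at 2.70 to 7.51 CPM. The part of such cells in the values of Gata2 and Tbx21 was not tested.

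Tbx19, a factor of pituitary corticotrophs, was the T-box gene whose promoter window was called above input. Its promoter window, at chr1:165160725-165161725, held 27, 41 and 18 tags in KO and 13, 12 and 17 in WT, with input of 5, 3 and 1 in KO and 5, 6 and 0 in WT. The log2 over input was 3.21 in KO (SE 0.72, edgeR adjusted p = 2.4e-05) and 2.02 in WT (SE 0.71, edgeR adjusted p = 0.01), and without WT input replicate 3 the WT value was 1.55 and no longer called (edgeR adjusted p = 0.0825). A pair of overlapping windows about 27.2 kb and 26.7 kb downstream, beyond the gene's end, held 26, 38 and 15 tags and 11, 10 and 11 tags in KO, and 36, 14 and 25 tags and 26, 9 and 27 tags in WT. Both were above input in WT, and the first was above input in KO. The neighbouring gene Sft2d2, 13.1 kb from the promoter window, was above input in both genotypes over its own windows (3.84 in KO, 3.42 in WT).

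Dlx2, which drives the fate of forebrain inhibitory neurons together with its neighbour Dlx1, had 9 windows, the most of any of the 59 genes. They held 152, 211 and 159 tags in KO and 134, 208 and 229 in WT, with input of 50, 22 and 31 in KO and 39, 40 and 23 in WT. The level was 35.9 ± 5.27 CPM in KO and 45.5 ± 9.1 CPM in WT (SD, n = 3 each), with log2 over input of 2.35 in KO (SE 0.26, edgeR adjusted p = 1e-12) and 2.53 in WT (SE 0.26, edgeR adjusted p = 5.8e-14). The mark lay far upstream: the window at 34.1 kb, chr2:71580318-71581318, held 51, 59 and 71 tags in KO and 37, 47 and 41 in WT, against input of 4, 4 and 3 in KO and 8, 6 and 3 in WT. Its log2 over input was 3.96 in KO (SE 0.51, edgeR adjusted p = 1.6e-13) and 2.92 in WT (SE 0.48, edgeR adjusted p = 1e-08).

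Farther upstream of Dlx2, a window at 48.0 kb held 16, 21 and 12 tags in KO and 18, 16 and 32 in WT and was above input in both genotypes (log2 1.60 in KO and 2.77 in WT). A window at 76.1 kb held 11, 18 and 4 tags in KO and 13, 10 and 16 in WT (log2 2.22 in KO and 1.98 in WT). Both calls in KO, and that of the 76.1 kb window in WT, were lost when any of several single libraries was left out, with log2 values of 1.37 to 2.45 and edgeR adjusted p-values of 0.0578 to 0.133. A pair of overlapping windows at 51.8 kb and 52.3 kb was called above input in WT and not in KO, at 3.78 and 2.99, against 1.00 and 1.38 in KO, and the difference between genotypes in H3K27ac over input was −2.78 (SE 1.01, edgeR adjusted p = 0.872) for the first. With tags outside windows as library size both were called in KO too, at 1.71 and 2.05 (edgeR adjusted p = 0.0229 and 0.0123), and the first was called in KO without KO replicate 3, at 1.60 (edgeR adjusted p = 0.0328). The windows from 48.0 to 52.3 kb lay in the body of Gm36857, a long non-coding RNA gene, and the deposited table placed all 8 upstream windows in an intron of a non-coding RefSeq transcript. Next to the gene itself the windows were near 0: at 1.27 kb upstream 4, 0 and 0 tags in KO and 3, 0 and 0 in WT, and at 3.53 kb downstream 6, 7 and 0 in KO and 0, 0 and 0 in WT.

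Dlx1 held 4, 0 and 2 tags in KO and 2, 0 and 4 in WT in its promoter window, and was not above input. Within 10 kb, the sum for Dlx2 was 0.18 in KO and −2.31 in WT on the log2 scale, neither called by edgeR (adjusted p = 0.891 and 0.0964). Neuronal markers were counted beside these values, and 4 of 8 had windows. In KO 2 of them were above input and 2, Tubb3 and Slc17a7, were below it, while in WT 1 was above and 0 below. Of all genes, 69.4% in KO and 67.1% in WT were above input. The neuronal markers had summed levels of 11.7 to 14.8 CPM in KO and 10.9 to 19.9 CPM in WT, against input of 5.03 to 8.53 CPM. Gad1, Gad2, Syt1 and Map2 had no window. The part of neurons in the Dlx2 values was not tested. Dlx3, Dlx4 and Dlx5 had no window above input, and Dlx6 was the nearest gene of no window.

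Nkx3-2, of the skeleton and spleen, and Six5, a homeobox gene next to the muscle kinase gene Dmpk, were called above input in KO and not in WT. The Nkx3-2 window 25.2 kb downstream of its TSS, at chr5:41738505-41739505, held 4, 19 and 56 tags in KO and 26, 7 and 20 in WT, with input of 6, 2 and 2 in KO and 7, 10 and 6 in WT. The KO libraries ranged from 4 to 56 tags and covered the WT range. Its log2 over input was 2.95 in KO (SE 0.68, edgeR adjusted p = 4.5e-05) and 1.29 in WT (SE 0.62, edgeR adjusted p = 0.067). The WT value was called too without WT replicate 2, at 1.70 (edgeR adjusted p = 0.0204), and with tags outside windows as library size, at 1.99 (edgeR adjusted p = 0.0036), and without KO replicate 3 the KO sum over the 3 windows of the gene was 0.25 (edgeR adjusted p = 0.730), against 1.23 with it. The KO call of that sum was also lost with DESeq2 (adjusted p = 0.0780), with the replicate number as a block (0.90, edgeR adjusted p = 0.127) and without any one KO input library. The difference between genotypes in H3K27ac over input was 1.66 as a log2 value (SE 0.93, edgeR adjusted p = 0.904). The flanking genes Rab28 and Bod1l, 30.8 kb and 48.5 kb from the window, were above input in both genotypes. They stood at log2 4.13 and 2.83 in KO and 3.95 and 2.44 in WT.

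Six5 held 5, 10 and 15 tags in KO and 6, 5 and 5 in WT in the window over its start, chr7:19094175-19095175, with input of 3, 1 and 0 in KO and 2, 4 and 2 in WT. Its log2 over input was 2.85 in KO (SE 1.16, edgeR adjusted p = 0.025) and 1.04 in WT (SE 1.09, edgeR adjusted p = 0.44). The KO call was lost without KO replicate 3 (2.46, edgeR adjusted p = 0.0755), without KO input replicate 2 or 3, or with the replicate number as a block. The difference between genotypes in H3K27ac over input was 1.81 (SE 1.58, edgeR adjusted p = 0.97). The overlapping promoter window held 6, 22 and 1 tags in KO and 5, 5 and 5 in WT and was not called. Six2, Six6 and the other Nkx genes with windows had none above input; the Nkx6-2 window, inside an intron of Inpp5a, held 4, 0 and 3 tags in KO and 0, 9 and 0 in WT.

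Of 39 Hox genes 14 had windows, 17 in all, and 7 of these were promoter windows. Hoxb4, which can expand blood stem cells, was the single Hox gene above input, in KO. Its window, chr11:96318236-96319236, was annotated to the 5′ UTR in the first exon and held 6, 6 and 29 tags in KO and 4, 15 and 6 in WT, with input of 2, 1 and 0 in KO and 4, 6 and 2 in WT. The log2 over input was 3.63 in KO (SE 1.06, edgeR adjusted p = 0.0014) and 1.09 in WT (SE 0.91, edgeR adjusted p = 0.32). KO replicate 3 carried it: without that library the value was 2.49 and not called (edgeR adjusted p = 0.0697). The KO and WT libraries overlapped. The difference between genotypes was 2.54 (SE 1.40, edgeR adjusted p = 0.899).

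The other 16 Hox windows held at most 9 tags in any H3K27ac library. Summed over all 17 Hox windows, the H3K27ac level was 3.97, 4.77 and 7.51 CPM in KO and 4.03, 8.01 and 7.09 CPM in WT, against input of 9.77, 8.40 and 7.27 CPM in KO and 12.9, 8.93 and 15.8 CPM in WT. Every H3K27ac library but KO replicate 3 was thus below every input library of its genotype, and KO replicate 3, at 7.51 CPM, exceeded KO input replicate 3 alone. Outside all windows the share of H3K27ac tags was also below that of input, at 0.62 of it in both genotypes. Hoxa7, Hoxa10, Hoxa11 and Hoxa3 together held 0.332 ± 0.574 CPM in KO and 1.02 ± 0.818 CPM in WT, against input of 3.15 ± 0.143 CPM in KO and 4.39 ± 0.65 CPM in WT (SD, n = 3 each). Hoxa9, a factor of blood progenitors and myeloid leukaemia, was the nearest gene of no window.

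None of the Lhx, Pax, Otx and Emx genes, many of which pattern the brain and eye, was above input. Lhx2, needed for cortex and eye, had 5 windows with at most 8 tags in any H3K27ac library. Lhx6, of inhibitory neurons from the medial ganglionic eminence, held 0 tags in all 6 H3K27ac libraries. Pax6, the eye and cortex gene, held 0, 1 and 9 tags in KO and 0, 0 and 11 in WT at 1.70 kb, and 0, 0 and 1 in KO and 1, 2 and 11 in WT at 34.4 kb. In both Pax6 windows replicate 3 carried most WT tags, and neither window was called. Otx2, of the forebrain and midbrain, held 2, 22 and 0 tags in KO and 2, 1 and 2 in WT in its 1 window, 72.6 kb away, and was not called (log2 1.84 in KO, edgeR adjusted p = 0.19). Emx2, a cortical patterning gene, held 3, 3 and 0 tags in KO and 0, 0 and 1 in WT.

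In the Lhx, Pax, Emx and Msx families, the gene named is the one with the highest ratio of H3K27ac to input CPM in whichever genotype had its lower ratio. Lhx4, of the pituitary and motor neurons, held 0, 5 and 8 tags in KO and 0, 0 and 5 in WT. Pax8, of thyroid and kidney, held 3, 6 and 4 tags in KO and 0, 3 and 0 in WT at 18.6 kb; in WT its ratio, 0.825, was under that of Pax6, 1.47. Emx1, of the cortex, held 0, 2 and 5 tags in KO and 0, 0 and 0 in WT in a window at 65.6 kb, which lay in Sfxn5, and 0, 0 and 0 in KO and 0, 0 and 5 in WT in a window at 14.6 kb in its own body. Its summed ratio was 1.14 in KO and 1.11 in WT. Msx3, of the dorsal neural tube, held 0, 0 and 0 tags in KO and 6, 2 and 0 in WT.

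Below input, edgeR called 15 windows in KO and 14 in WT, 12.3% and 11.5%, against 2.55% of all windows in KO and 2.27% in WT. On the scale of total tags used here, H3K27ac tags outside all windows also stood at 0.62 of input in both genotypes. The lists shared 2 windows, one of Tbx20 and one of Nkx6-1, and named 27 windows in all. Among genes, 9 were below input in KO (Dlx3, Gata5, Hoxa7, Nkx1-1, Nkx2-3, Pax2, Pax4, Six2 and Tbx20) and 7 in WT (Hoxa3, Hoxb3, Hoxb8, Hoxc8, Nkx1-1, Nkx6-1 and Tbx20), against 1.85% of all genes in KO and 1.92% in WT. Tbx20 and Nkx1-1 were on both lists, and 37 of the 59 genes were called in neither direction in either genotype. These counts depended on the scaling and the fit: with tags outside windows as library size 5 windows in KO and 5 in WT were below input, with DESeq2 6 and 6, and with the replicate number as a block 0 and 2. They also depended on single libraries: without KO H3K27ac replicate 2 or 3 or any KO input the KO count was 5 to 9, and without any WT H3K27ac or input library, or KO input replicate 1 or 3, the WT count was 5 to 9.

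Tbx20, of the heart, held 0 tags in all 6 H3K27ac libraries over 2 windows, with input of 7, 2 and 6 tags in KO and 4, 1 and 5 in WT. With 3 tags over each group as a floor and the input count taken as exact, it was at least 4.98-fold lower than input in KO and at least 3.21-fold lower in WT. Nkx1-1 likewise held 0 tags, against input of 11, 1 and 3 in KO and 3, 2 and 2 in WT, and was at least 4.98-fold lower in KO and at least 2.25-fold lower in WT. Dlx3, Lhx6 and Tbx3 were also at 0 in all 6 libraries, on 1 window each. Nkx6-1, of pancreatic beta cells and spinal progenitors, held 0, 4 and 7 tags in KO and 0, 1 and 0 in WT over 4 windows and was below input in WT (log2 −3.80, SE 1.30, edgeR adjusted p = 0.0075) and not called in KO (−1.63, edgeR adjusted p = 0.12), a difference of 2.18 between genotypes (edgeR adjusted p = 0.866). Input counts at these windows were low, so no fold beyond the bounds above could be measured. The bounds use total tags, a scale on which tags outside all windows stood at 0.62 of input.

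The 22 promoter windows of 20 genes were set against the 100 windows beyond 1 kb. Promoter windows were above input at 3 of 22 in KO (13.6%) and 1 of 22 in WT (4.55%), against 76.6% and 74.1% of all 17501 promoter windows. Beyond 1 kb they were above input at 12 of 100 in KO and 14 of 100 in WT, against 48.3% and 45.6% of all such windows. At 13 of the 22 promoters no H3K27ac library held more than 3 tags. Summed over the 22, the level was 15.2, 19.1 and 18.7 CPM in KO and 11.3, 12.5 and 13.5 CPM in WT, against input of 10.3, 9.60 and 8.68 CPM in KO and 13.1, 13.2 and 9.13 CPM in WT. The sum as such was not tested, and no like sum over other genes was made to stand beside it. Tbx19, Hoxb4 and Six5 were the promoters above input in KO. Hoxb4 held 6, 6 and 29 tags in KO replicates, and the overlapping promoter windows of Six5 share tags.

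**Figure D4:**
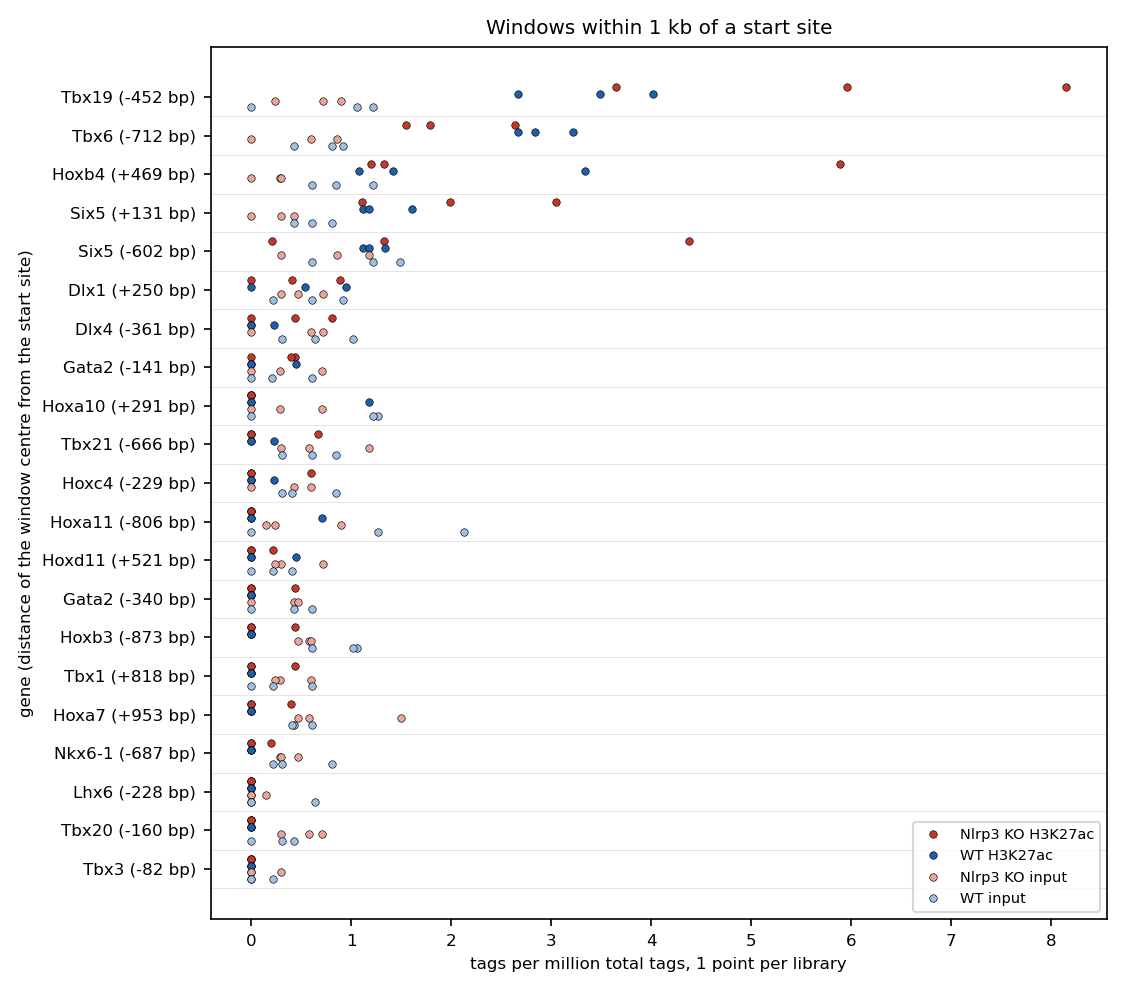
H3K27ac and input levels in CPM (x axis) of the promoter windows of homeobox, GATA and T-box genes (y axis), with a point for each library, KO and WT; 1 of the 22 windows is not drawn. The points of Tbx19, Tbx6, Hoxb4 and Six5 reach farthest right, and at 13 of the 22 windows no H3K27ac library held more than 3 tags.

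Promoter sequence from RefSeq (GRCm38.p6) is shown for promoters with H3K27ac above input in a genotype (Tbx19, Hoxb4 and Six5) and for 2 with the mark at or near 0 (the upstream start site of Gata2, and Tbx20). Each line is the 250 bases before the annotated start, 5′ to 3′ on the gene's strand, with CG dinucleotides in capitals. The runs of Tbx19, Six5, Gata2 and Tbx20 lay inside a counted window, while that of Hoxb4 reached its window only with its 3′ end.
Tbx19 (chr1:165160774-165161023, minus strand): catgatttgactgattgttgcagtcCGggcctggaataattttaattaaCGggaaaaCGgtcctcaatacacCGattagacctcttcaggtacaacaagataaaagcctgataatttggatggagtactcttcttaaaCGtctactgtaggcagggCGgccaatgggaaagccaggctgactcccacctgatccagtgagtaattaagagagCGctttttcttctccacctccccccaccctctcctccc
Hoxb4 (chr11:96318017-96318266, plus strand): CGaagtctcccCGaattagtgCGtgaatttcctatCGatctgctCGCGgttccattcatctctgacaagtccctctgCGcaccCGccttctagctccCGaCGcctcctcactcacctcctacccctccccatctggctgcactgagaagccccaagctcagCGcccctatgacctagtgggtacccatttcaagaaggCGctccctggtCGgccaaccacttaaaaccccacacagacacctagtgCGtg
Six5 (chr7:19094294-19094543, plus strand): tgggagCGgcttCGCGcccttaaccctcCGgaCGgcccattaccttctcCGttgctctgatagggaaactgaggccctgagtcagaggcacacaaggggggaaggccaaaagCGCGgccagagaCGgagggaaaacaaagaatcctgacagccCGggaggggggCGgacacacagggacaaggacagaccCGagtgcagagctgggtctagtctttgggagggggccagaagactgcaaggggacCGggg
Gata2 (chr6:88193641-88193890, plus strand): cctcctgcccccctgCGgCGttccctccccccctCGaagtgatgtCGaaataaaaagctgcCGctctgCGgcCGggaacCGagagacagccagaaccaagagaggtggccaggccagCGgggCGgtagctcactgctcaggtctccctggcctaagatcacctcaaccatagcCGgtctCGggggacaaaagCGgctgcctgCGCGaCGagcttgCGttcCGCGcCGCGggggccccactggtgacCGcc
Tbx20 (chr9:24774304-24774553, minus strand): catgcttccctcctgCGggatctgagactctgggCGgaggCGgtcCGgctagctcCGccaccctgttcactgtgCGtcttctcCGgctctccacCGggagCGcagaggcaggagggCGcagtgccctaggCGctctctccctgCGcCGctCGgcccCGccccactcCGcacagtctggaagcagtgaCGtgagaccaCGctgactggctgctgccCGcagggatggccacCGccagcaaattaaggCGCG

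The Tbx19 run held 7 CG dinucleotides and 47.6% G and C, the fewest of the 5, and Hoxb4 held 14 and Six5 13. Gata2 and Tbx20, whose promoter windows had at most 2 tags in any H3K27ac library, held 22 each. Over the full 300 bases that RefSeq promoters cover here, the median was 19 CG dinucleotides for 55 promoters of 41 of the 59 genes and 17 for 93 promoters of 76 of the 114, against 7 for all 32851. G and C made up a median of 62.0% for the 55, 60.0% for the 93 and 52.7% for all. Of the 122 windows, 10 (8.20%) were annotated as CpG islands in the deposited table, and 1 of the 10, at Dlx2, was above input, in both genotypes. Of all 2116 windows with that annotation, 74.7% were above input in KO and 72.4% in WT.

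Motifs were searched on both strands of the 300-base promoters as letters alone. TAATTA, a core that homeodomains bind, was in 12.7% of the 55 promoters and 8.60% of the 93, against 5.29% of all. AGATAA, which zinc finger factors of the Gata family bind, was in 10.9% and 9.68%, against 11.2% of all. GAGGAAGT, a form of the PU.1 site, was in 1.82% and 1.08%, against 3.20%. Of the 5 runs printed above, that of Tbx19 held TAATTA and AGATAA, and the other 4 held neither.

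KO and WT H3K27ac libraries were then compared directly. Of the 122 windows 17, of 6 genes, had enough tags to be tested (13.9%, against 59.5% of all windows), and none was called by edgeR, against 0.0595% of all tested windows. DESeq2 called none either, and 2 windows had an unadjusted edgeR p under 0.05, against 4.69% of all. The fold changes ran from −2.23 to 0.79 on the log2 scale, 6 higher and 11 lower in KO, with a median of −0.19, against 0.00 for all tested windows. In 4 of the 17, 3 of Dlx2 and 1 of Tbx6, the KO and WT libraries did not overlap, against 10.1% of all tested windows. The filter went by tag counts: it left out the Hoxb4 and Six5 windows called above input in KO and kept the Tbx6 promoter window, which was not called. The other 105 windows were not compared.

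Dlx2 gave the lowest and some of the higher values. Its window 51.8 kb upstream, chr2:71598038-71599038, held 16, 12 and 0 tags in KO and 22, 40 and 51 in WT, a log2 difference of −2.23 (SE 0.67, edgeR adjusted p = 0.629). The overlapping window at 52.3 kb held 10, 6 and 14 tags in KO and 16, 20 and 41 in WT (−1.52, SE 0.64, edgeR adjusted p = 0.998). All 3 KO libraries were below all 3 WT libraries in both, and the windows share tags. At 34.1 kb, the KO libraries were above the WT libraries without overlap, with a log2 difference of 0.33 (SE 0.34, edgeR adjusted p = 0.998).

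**Figure D5:**
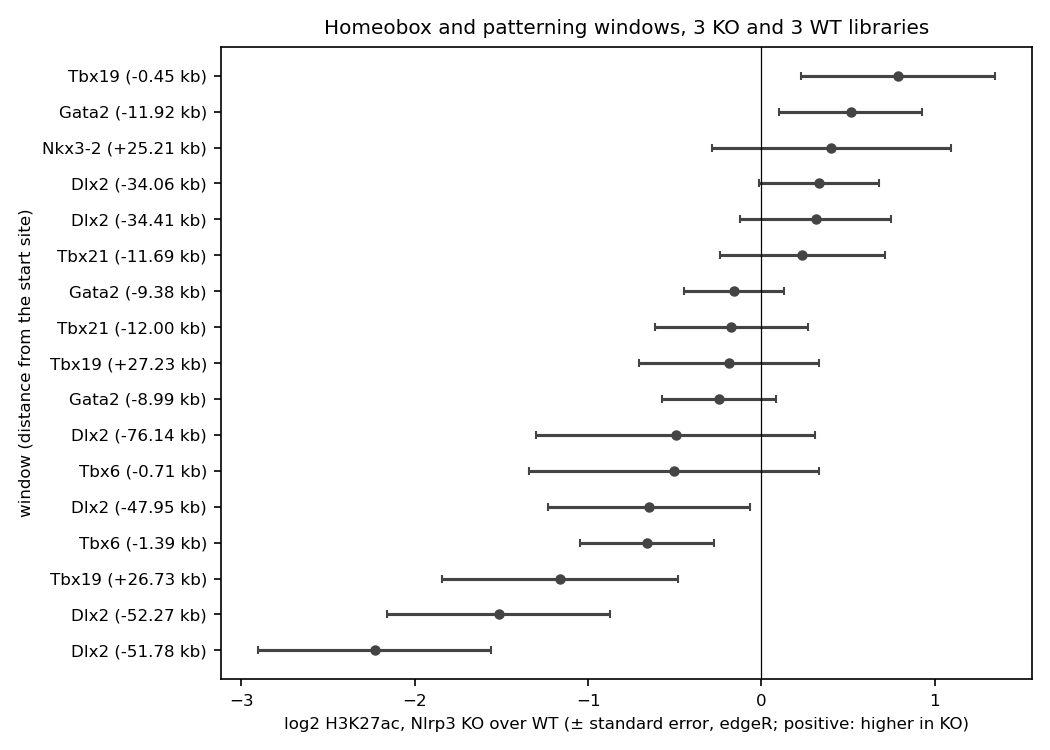
Fitted log2 H3K27ac of KO over WT (x axis, positive where higher in KO; points are edgeR estimates and bars their standard errors, 3 libraries per genotype) for the 17 windows with enough tags to compare (y axis, distance from the start site in kb). Estimates run from −2.23 at Dlx2 to 0.79 at Tbx19, and none was called.

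Elsewhere the highest value was that of the Tbx19 promoter, at 5.92 ± 2.25 CPM in KO and 3.39 ± 0.68 CPM in WT (SD, n = 3 each), a log2 difference of 0.79 (SE 0.56, edgeR adjusted p = 0.998). The Tbx19 window 26.7 kb downstream went the other way, at −1.16 (SE 0.68, edgeR adjusted p = 0.998), and the sum over the gene was −0.10 (SE 0.34). The Gata2 window 11.9 kb upstream had a log2 difference of 0.51 (SE 0.41), and those at 9.38 and 8.99 kb −0.16 and −0.25. For genes, 7 of 59 could be tested and none was called by edgeR or DESeq2, against 0.206% of all tested genes, and 0 had an unadjusted p under 0.05, against 5.77% of all. Six5 was at 0.72 (SE 0.72), Nkx3-2 at 0.45 (SE 0.65), Tbx6 at −0.62 (SE 0.36), Dlx2 at −0.34 (SE 0.22), Tbx21 at −0.08 (SE 0.34) and Gata2 at −0.07 (SE 0.24), with edgeR adjusted p-values of 0.907 to 0.997.

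The difference between genotypes in H3K27ac over input was tested in all 122 windows and 59 genes and gave no call, as for all windows and genes, of which 0.0% were called. Unadjusted p-values under 0.05 were found at 6 windows and 3 genes, with smallest edgeR adjusted p-values of 0.872 and 0.740. The smallest among genes was that of Six2, with 0, 0 and 1 H3K27ac tags in KO and 5, 2 and 19 in WT.

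Genes that work with or upstream of these factors were counted from lists of fixed membership, and their counts stand against the 69.4% of all genes in KO and 67.1% in WT that were above input. Of 11 TALE homeobox genes, a class that includes partners of Hox proteins, 10 had windows, 7 above input in KO and 9 in WT. Their median log2 over input was 2.78 in KO and 2.63 in WT. Tgif1, a corepressor of TGF-beta and retinoid signalling, stood at 367 ± 11.7 CPM in KO and 398 ± 36.4 CPM in WT (SD, n = 3 each). Meis1 was called above input in WT (log2 1.23) and not in KO (0.18), a difference of −1.05 (edgeR adjusted p = 0.842). All 15 Polycomb genes had windows, 11 above input in KO and 12 in WT, among them Eed (3.44 in KO, 3.50 in WT) and Rnf2 (4.02 in KO, 3.64 in WT), while Pcgf2, Cbx2 and Cbx8 were not above input in either.

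Of 6 trithorax and H3K27 demethylase genes 5 had windows and 3 were above input in each genotype, with Kdm6b, a demethylase of H3K27, at 4.95 in KO and 4.91 in WT. Of 9 retinoic acid genes 5 had windows, 3 above input in KO and 2 in WT; Rarg stood at 2.58 in KO and 3.24 in WT and Rxra at 2.51 in KO and 2.48 in WT. The synthetic enzymes Aldh1a1, Aldh1a2 and Aldh1a3 and the degrading enzyme Cyp26a1 had no window. Of 11 morphogen genes 6 had windows and 0 were above input in either genotype (median −0.52 in KO and −0.04 in WT), and Shh, Bmp4, Bmp7, Wnt3 and Gli3 had none. All 14 microglial lineage factors, Spi1 at 4.99 in KO and 4.48 in WT among them, were above input in both genotypes. Between KO and WT, 9 TALE, 13 Polycomb, 4 trithorax and demethylase, 4 retinoic acid and 14 lineage genes could be tested. None of them was called, against 0.206% of all tested genes. The morphogen genes had too few tags to be tested.

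The 100 kb limit set the membership. The farthest window inside it lay 95.5 kb from Pax8, with 4, 0 and 0 tags in KO and 7, 0 and 0 in WT. The nearest outside lay 112 kb from Pax8, with 5, 1 and 0 tags in KO and 1, 0 and 15 in WT. In total 4 windows of the 114 genes lay beyond the limit, the others nearest Pax8, Lhx8 and Irx3.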

How the data were processed

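The authors deposited tag counts of each library in each window, unnormalized. HOMER's annotatePeaks.pl, per the file headers, counted them on mm10 in windows of 1000 bp. HOMER, DESeq2 and mm10 are named in the submitters' processing notes. The sources used here give neither the aligner nor any version. The scaled copy of the table was not used, and no per-sample column was left unmapped (0).

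Groups came from the sample titles. Each window was assigned to the gene of its nearest TSS in the table. Genes and lists were chosen with earlier results of these data known.

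H3K27ac was set against input with edgeR 4.0.16 (R 4.3.3) quasi-likelihood tests, 2-sided, in 1 fit of 12 libraries and 4 group means, with total tags as library size and no filter on low counts. KO and WT H3K27ac libraries were compared in a fit of 6 libraries with TMM and filterByExpr. P-values were adjusted by Benjamini-Hochberg over all windows or genes, with a threshold of 0.05. "Called" means past it. Gene values are sums over windows within 100 kb, in which tags shared by overlapping windows count more than once. CPM is tags per 1000000 total tags of a library. Ratios have 0.5 CPM added to both means. A fold against 0 tags takes 3 tags over the group as a floor. Such floors cover counting error of the H3K27ac tags only. They take the input count as exact, so a fold from few input tags is a rough bound. Each SE is the absolute log2 value divided by the square root of the F statistic of its edgeR test. DESeq2 1.42.0 was an alternative. The fits were tested on simulated counts.

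Named were fixed genes (Gata1, Gata2, Gata3, Tbx21, Pax5, Hoxa9, Hoxb4, Lhx2, Lhx6, Dlx1, Dlx2, Nkx2-1, Nkx2-2, Otx2, Emx2 and Pax6), the 8 genes with the highest and 5 with the lowest H3K27ac over input, the top gene of each family, the 8 highest windows (1 per gene), and the 3 smallest p-values per direction between genotypes. One gene with windows is counted but not reported here. Other names were chosen after their values were seen.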

Additional observations from a re-analysis of the deposited data

Results flagged for a closer look

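One window outside the comparisons above carried a signal above input. It lay 153 kb from the TSS of Lhx8, a factor of forebrain cholinergic neurons, beyond the 100 kb limit, at chr3:154177384-154178384, inside Slc44a5. It held 23, 6 and 14 H3K27ac tags in KO and 13, 16 and 0 in WT, against 5, 1 and 0 input tags in KO and 3, 4 and 2 in WT. Its fitted log2 H3K27ac over input was 2.90 in KO (edgeR adjusted p = 0.0043) and 1.72 in WT (edgeR adjusted p = 0.094).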

How the results depend on the processing

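No window or gene of these families was called between KO and WT under any alternative run. Windows above input numbered 9 to 18 in KO and 8 to 19 in WT over all alternatives; the lowest, 9 and 8, left out windows in other genes' bodies. Windows below input fell to 5 in KO and 5 in WT with tags outside windows as library size, 0 and 0 with filterByExpr and 6 and 6 with DESeq2, and ran from 5 to 18 in KO and 5 to 16 in WT with 1 library left out. With filterByExpr, windows and genes with few tags were left out untested, so its counts below input are not a retest of them. Genes above input were 5 in KO and 2 in WT within 10 kb, and 4 and 2 within 1 kb. Genes below input were 5 and 4 with tags outside windows, 1 and 0 with filterByExpr and 1 and 1 within 1 kb, 5 in KO within 10 kb and 4 in WT with DESeq2. With 1 library left out they were 6 to 12 in KO and 4 to 10 in WT, lowest without WT input replicate 1.

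Same-numbered libraries hardly deviated together (r of −0.001 to 0.016), and the labels do not say that a number marks a shared animal. In WT, but not in KO, each H3K27ac library correlated best with the input of its own number, and both WT libraries numbered 1 lacked Y-linked promoter tags, a hint from the data and not from the design. With the replicate block, 0 windows in KO and 2 in WT, and 1 gene in WT, were below input.

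Sums reversed sign within 1 kb for Gata2 (−0.61 in KO, −1.80 in WT) and Tbx21 (−1.58, −2.56), within 10 kb for Tbx21 (−1.58, −2.56), Nkx3-2 (−2.25, −3.81) and Dlx2 in WT (−2.31), and without overlapping windows for Six5 (−1.69, −4.62). With 1 library left out, Six5 in WT ran from −0.21 to 0.30, Nkx3-2 KO over WT from −0.68 to 0.91 and Tbx19 KO over WT from −0.32 to 0.12; the last, −0.10 in the report, was 0.10 as the genotype difference over input, 0.69 within 10 kb, 0.79 within 1 kb and 0.23 without overlapping windows. The causes were not tested. Depth limits what can be called: 28 of 122 windows reached 3 tags in no H3K27ac library.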

Other observations

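The deposited table names the site list or lists each window came from. Of the 122, 76 (62.3%) stood in both the KO and the WT site list, 13 (10.7%) in the KO list alone and 33 (27.05%) in the WT list alone, against 75.5%, 8.18% and 16.3% of all windows. Intergenic windows made up 45.9%, against 30.3% of all. These shares were not tested.

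In several windows most tags came from 1 or 2 libraries. The Six2 window 1.05 kb from its start held 0, 0 and 1 in KO and 1, 0 and 15 in WT. A Tbx2 window at 9.60 kb held 1, 0 and 0 in KO and 0, 0 and 11 in WT, and a Tbx21 window at its gene's end, 16.7 kb downstream, held 1, 5 and 0 in KO and 5, 0 and 8 in WT. None of these 3 was called.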
